A study of Mus musculus with 2 samples.

Results

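The cytochrome P450 genes of the mouse were examined for DNA methylation in liver. They were taken as every autosomal protein-coding gene of the RefSeq annotation of mm10 whose symbol begins with Cyp and a digit, which gave 99 of 20661 genes. Each gene was represented by the CpG cytosines in its span and 5 kb on each side that had at least 5 reads in both libraries. The animals were CD-1 mice, an outbred stock, 12 weeks of age and kept on standard chow, and liver DNA came from mice labelled as control, with no treatment named, or from mice fasted for 12 hr. There was 1 library per condition and the labels do not say how many mice it held, so no spread between animals can be given and every difference below is one between 2 libraries. Methylation was read by reduced representation bisulfite sequencing, which samples fragments cut at the sites CCGG and TCGA and reports for each cytosine the share of reads that stayed unconverted.

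P450 enzymes are haem proteins that insert an oxygen atom into lipids, steroids, vitamins and foreign compounds. Most sit in the endoplasmic reticulum and take electrons from P450 oxidoreductase, and a few sit in mitochondria and take them from ferredoxin. Families 1 to 3 mainly oxidise drugs and pollutants, family 4 hydroxylates fatty acids, families 7 and 8 shape bile acids, and the remaining families build or break down sterols, steroid hormones, vitamin D and retinoic acid. Hepatocytes are the main site of the drug and bile acid enzymes, and many of their genes lie in clusters of close copies. A list of 59 P450 genes known for expression in liver, called liver-rich here, was set against the remaining 40. The list came from general knowledge, with no RNA measured, and it also counts Cyp51, Cyp2r1 and Cyp2u1.

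The P450 genes held 3422 measured cytosines, with a median depth of 14 (control) and 15 (fasted) reads, the same medians as over all autosomal cytosines measured. Of the 99 genes, 86 had at least 5 cytosines and are called measured here, 10 had 1 to 4, and 3 (Cyp2a12, Cyp2c37 and Cyp2d9) had 0. The median P450 gene held 18 cytosines and the median protein-coding gene 84. Close copies in the Cyp2a, Cyp2b, Cyp2c, Cyp2d, Cyp3a and Cyp4a clusters can trade reads in alignment, so levels of single genes there are uncertain. In 4 pairs of neighbours the windows shared cytosines, foremost Cyp26a1 and Cyp26c1 with 189 in common. Cytosines of one molecule are not independent. Among P450 cytosines of intermediate level with 30 to 49 reads, many had an even number both of methylated and of all reads. These were 59.3% of 54 in control and 59.6% of 52 in fasted liver. Over all autosomal cytosines of that kind the shares were 57.7% of 18659 and 54.3% of 22230. Reads therefore appear to be counted partly in pairs. Intervals and p-values hold counting error alone, and for this reason the intervals are too narrow.

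Few P450 genes carry the CpG-dense start that most protein-coding genes have. RefSeq promoter sequences of 300 bases, from 250 before to 50 after the start of transcription, were at hand for 77 P450 genes. Their median number of CG dinucleotides was 3, against 14 over 16456 protein-coding genes, and 10 of them (13.0%) held 10 or more, against 58.6%. Liver-rich P450s had a median of 2 and the others 4. The promoters of Cyp51 (lanosterol demethylase of cholesterol synthesis), Cyp2r1 (vitamin D hydroxylase), Cyp1a1 (oxidises polycyclic aromatic hydrocarbons), Cyp2e1 (the ethanol-inducible P450), Cyp3a11 (the main drug-inducible P450 of family 3) and Cyp8b1 (which makes cholic acid) show the range. The 250 bases before each start are given 5′ to 3′ on the strand of the gene, in GRCm38.p6, the assembly of mm10, with every CG in capitals.
Cyp51 (chr5:4104698-4104947, minus strand): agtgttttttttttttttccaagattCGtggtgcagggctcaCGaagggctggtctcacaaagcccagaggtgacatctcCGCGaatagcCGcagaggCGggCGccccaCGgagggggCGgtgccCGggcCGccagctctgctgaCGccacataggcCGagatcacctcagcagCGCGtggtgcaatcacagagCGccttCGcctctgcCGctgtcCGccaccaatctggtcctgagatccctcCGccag
Cyp2r1 (chr7:114562973-114563222, minus strand): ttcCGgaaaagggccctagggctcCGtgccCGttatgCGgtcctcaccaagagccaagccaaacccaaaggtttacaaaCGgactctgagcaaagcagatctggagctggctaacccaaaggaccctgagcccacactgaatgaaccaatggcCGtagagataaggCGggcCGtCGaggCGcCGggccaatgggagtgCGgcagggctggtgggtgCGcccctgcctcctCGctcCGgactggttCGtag
Cyp1a1 (chr9:57697363-57697612, plus strand): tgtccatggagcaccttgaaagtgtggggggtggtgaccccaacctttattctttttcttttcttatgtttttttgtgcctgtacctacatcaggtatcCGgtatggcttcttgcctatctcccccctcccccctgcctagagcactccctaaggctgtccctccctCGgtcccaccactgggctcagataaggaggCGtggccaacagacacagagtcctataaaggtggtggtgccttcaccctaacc
Cyp2e1 (chr7:140763569-140763818, plus strand): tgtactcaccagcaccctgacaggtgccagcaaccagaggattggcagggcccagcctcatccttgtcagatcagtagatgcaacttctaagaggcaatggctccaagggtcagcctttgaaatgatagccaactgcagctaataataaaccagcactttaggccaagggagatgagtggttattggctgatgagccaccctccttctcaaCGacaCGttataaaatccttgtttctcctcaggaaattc
Cyp3a11 (chr5:145879855-145880104, minus strand): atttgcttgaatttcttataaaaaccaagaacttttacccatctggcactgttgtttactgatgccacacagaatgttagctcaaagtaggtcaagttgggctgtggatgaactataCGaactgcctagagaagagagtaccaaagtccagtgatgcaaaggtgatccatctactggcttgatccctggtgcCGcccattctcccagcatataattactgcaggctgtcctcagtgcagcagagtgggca
Cyp8b1 (chr9:121916306-121916555, minus strand): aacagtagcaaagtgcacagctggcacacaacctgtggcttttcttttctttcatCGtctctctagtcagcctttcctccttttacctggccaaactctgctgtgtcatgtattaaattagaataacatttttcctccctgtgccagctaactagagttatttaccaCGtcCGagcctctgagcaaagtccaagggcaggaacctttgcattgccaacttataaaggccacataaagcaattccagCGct

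The Cyp51 stretch holds 20 CGs and that of Cyp2r1 16, while those of Cyp1a1, Cyp2e1, Cyp3a11 and Cyp8b1 hold 3, 2, 2 and 4. Within the printed bases of Cyp51, 9 cytosines were measured, with a mean level of 0.358% in control (244 reads) and 0% in fasted liver (333 reads). In those of Cyp2r1 23 cytosines stood at 1.86% (601 reads) and 0% (522 reads). In those of Cyp1a1 1 cytosine was measured, and in those of Cyp2e1, Cyp3a11 and Cyp8b1 0, none of which holds a CCGG or TCGA. Either cutting site lay in 39.0% of P450 promoters, against 69.4% of all. The letters GCGTG, which contain a CG as the cutting sites do, are the core bound by the aryl hydrocarbon receptor with its partner ARNT. On either strand they were present in 17 P450 promoters (22.1%), against 39.3% of all promoters. In the Cyp1a1 stretch they occur 1 time, starting 54 bases before the start of transcription. A match of these letters is a description of the sequence and not a binding site.

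P450 genes had high methylation levels when all cytosines of a gene and its flanks were averaged. The median level of the 86 measured P450 genes was 70.2% in control and 66.8% in fasted liver, against 34.9% and 34.7% over 17862 measured protein-coding genes. Levels of at least 60% in the control library were found in 54 P450 genes (62.8%), against 25.1% of all genes. The 52 measured liver-rich genes had a median of 73.6% and the 34 others 62.8% in control liver. In fasted liver these were 70.8% and 59.5%. The levels moved with coverage. Among genes with at least 20 cytosines the liver-rich median was 56.2% (23 genes) and that of the others 58.9% (26 genes), and with at least 20 reads the medians were 22.5% and 16.0%. Both ranges, from 7.47 to 95.1% and from 12.0 to 96.8%, cover nearly the whole scale. Genes are not replicates, so these medians are a description with no test.

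**Figure D1:**
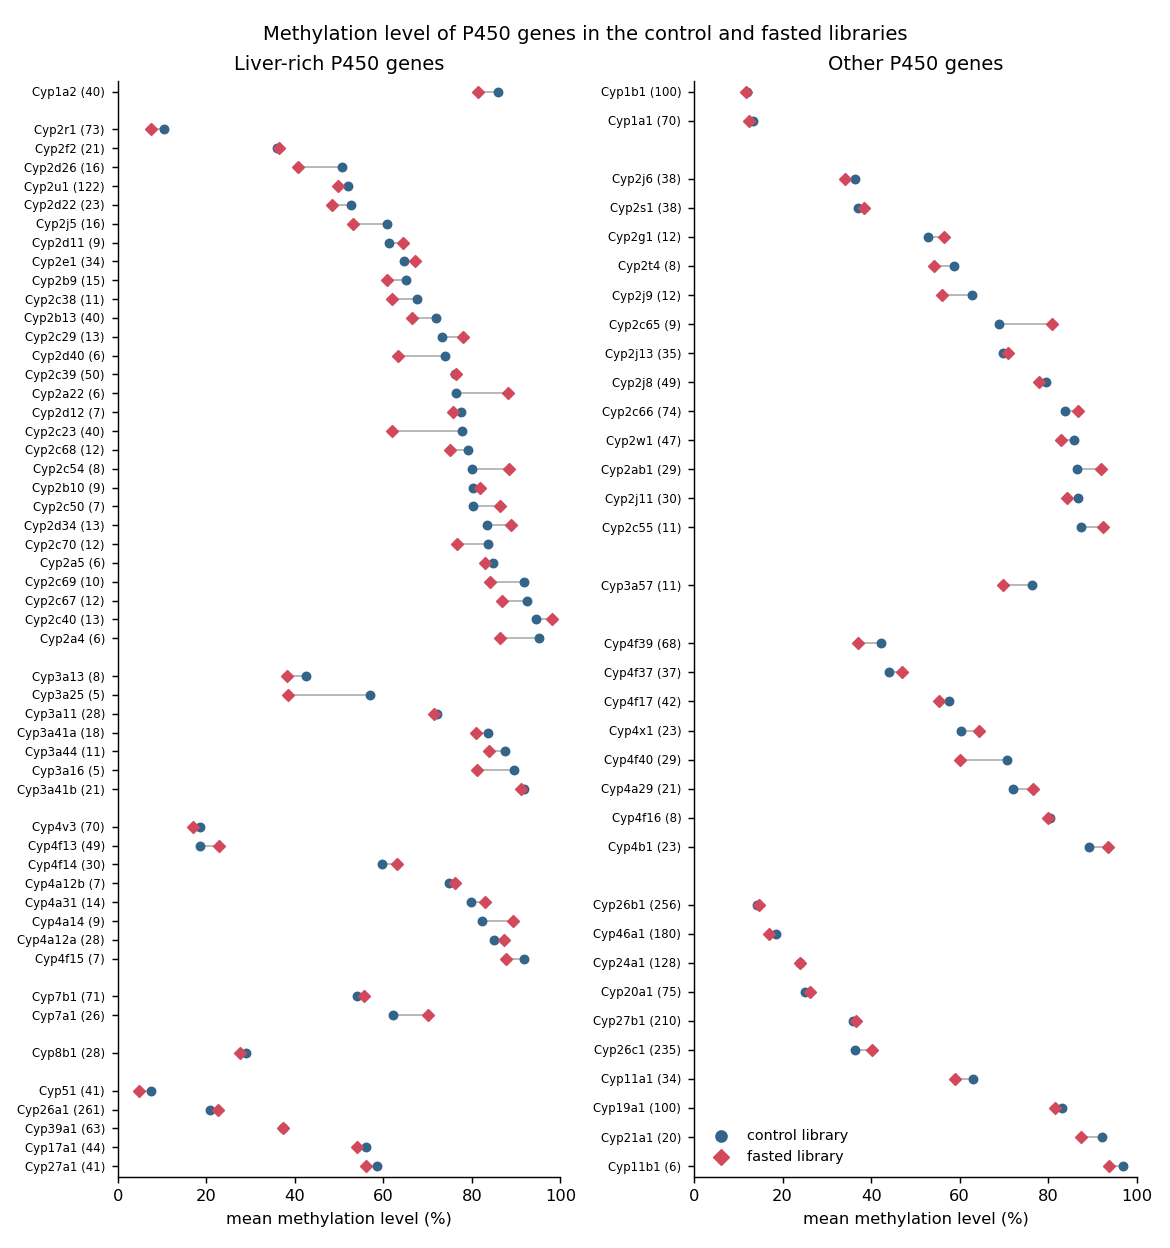
Mean methylation level (percent) of each measured P450 gene in the control library (circles) and the fasted library (diamonds), with the number of cytosines in brackets. Liver-rich genes are on the left and others on the right, families are separated by gaps, and within each panel levels run from below 20% to above 90%.

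Away from starts, P450 genes stood near other genes in the control library. Cytosines more than 2000 bp from every annotated start and gene end had a median level per gene of 80.2% over 68 P450 genes and 80.4% over 14475 genes in the control library, and 78.9% and 80.7% in the fasted library. The liver-rich and other P450s stood there at 80.1% and 81.9% in control liver and at 76.3% and 80.4% in fasted liver. The median difference per gene was -3.38 points in liver-rich P450s, -1.27 in the others and 0.0237 over all genes. Across the 66 measured P450 genes with a promoter sequence, the number of CGs in the promoter and the gene level had a Spearman rho of -0.475 (control) and -0.446 (fasted), a description across genes that share libraries and, in clusters, sequence. This gene level averages all cytosines, those at the start included. The rho is therefore partly built in and does not describe levels away from starts.

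**Figure D2:**
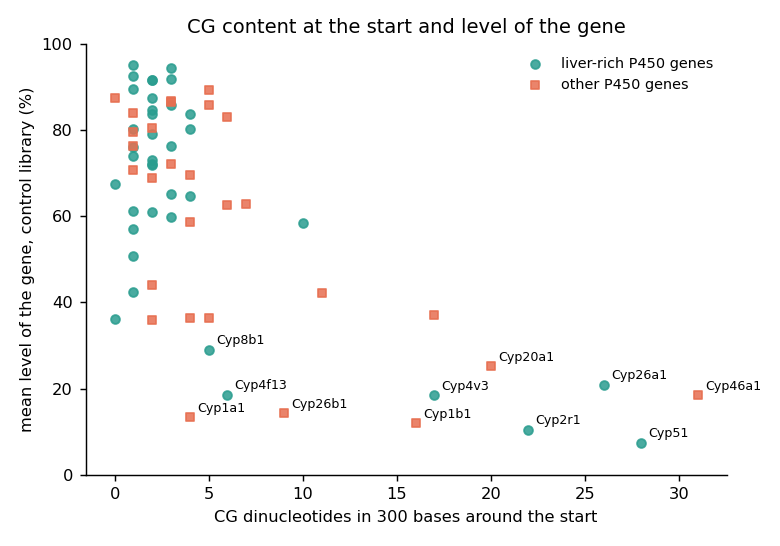
Number of CG dinucleotides in the 300 bases around the start of transcription against the mean level of the gene (percent) in the control library, 1 point per P450 gene (circles liver-rich, squares other). Cyp51, Cyp2r1, Cyp4v3, Cyp26a1 and Cyp46a1 lie at the lower right with many CGs and low levels.

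The start itself, taken from 1000 bp before to 500 bp after the outermost annotated start, held at least 3 cytosines in 21 of 77 P450 genes (27.3%), against 67.1% of protein-coding genes. Among P450 starts 10 (47.6%) were below 10% in the control library, where the share over all starts was 83.5%. Of the 8 liver-rich starts 6 were below 10%, with a median of 1.82% in control and 2.97% in fasted liver. Among these 8 were Cyp51, Cyp26a1, Cyp2r1, Cyp4v3 and Cyp27a1, with 10 or more CGs in the promoter. Only 5 of the 44 liver-rich promoters held so many, so the 8 do not stand for liver-rich starts as a whole. No liver-rich Cyp2a, Cyp2b, Cyp2c, Cyp3a or Cyp4a start was measured. Of the 13 other starts 4 were below 10%, with medians of 22.5% and 21.5%, and 3 stood at 80% or more (Cyp2w1, Cyp26c1 and Cyp2c55). Among the 13, Cyp20a1, Cyp2s1, Cyp46a1 and Cyp4f39 had 10 or more CGs. In the first 500 bp of the gene, the mean over genes was 5.24% in control and 6.69% in fasted liver for 9 liver-rich genes, and 34.4% and 34.4% for 13 others. With 10 or more CGs in the promoter, the 9 measured P450 starts had a median of 1.67% in the control library, near the 0.869% of all such starts. With 3 to 9 CGs the medians were 23.0% (8 P450 genes) and 20.4%. With 0 to 2 CGs, the class of 37 P450 promoters, they were 34.4% (4 P450 genes, from 22.5 to 88.4%) and 75.8% (231 starts). So few P450 starts were measured in that class that it allows no comparison.

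**Figure D3:**
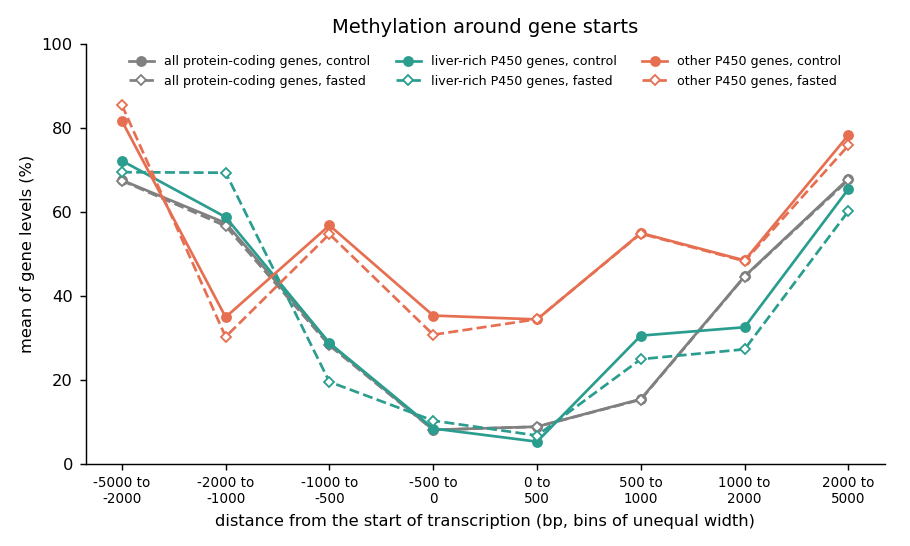
Mean of gene levels (percent) by distance from the start of transcription for liver-rich P450 genes, other P450 genes and all protein-coding genes, in the control library (solid, circles) and the fasted library (dashed, open diamonds). Within the first 500 bp the control level is 5.24% in liver-rich P450 genes, 34.4% in the others and 8.79% in all genes, and each P450 point rests on 2 to 16 genes. The groups are not matched for the number of CGs in the promoter.

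Family 1 held levels near both ends of the scale. Cyp1a2, the liver enzyme of caffeine and arylamines, stood at 85.8% in control and 81.5% in fasted liver over 40 cytosines. Its neighbour Cyp1a1, which is induced through the aryl hydrocarbon receptor, stood at 13.4% in control and 12.4% in fasted liver, where 30 of its 70 cytosines lie beside the edge of the neighbouring gene Edc3 at 1.12% and 0.683%. Within Cyp1a1 the level changed over a short distance. The window from 57696001 to 57697000 on chromosome 9, whose cytosines are centred 1133 bp before the start, was at 3.72% and 1.84% over 29 cytosines (852 and 807 reads). Inside the gene 6 cytosines were at 89.6% and 89.7%. Close to the start, the cytosine at position 57697284 stood at 53.3% in both libraries (15 reads in each). On the other strand of that CpG, position 57697283, the level was 60% of 10 control and 20% of 5 fasted reads. The cytosine at 57697463, inside the printed promoter, stood at 66.7% of 12 and 78.6% of 14 reads. The upstream region of Cyp1a1 is known for its cluster of response elements of the aryl hydrocarbon receptor. Cyp1b1, an enzyme of oestrogens and hydrocarbons outside the liver, stood at 12.0% in control and 11.7% in fasted liver, with 89 of its 100 cytosines in a window at 4.14% and 4.54%.

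Family 2 was the largest, with 48 genes, 41 of them measured, and a median level of 76.1% in control and 75.7% in fasted liver. Its clustered subfamilies were highly methylated. All 14 measured Cyp2c genes, epoxygenases and drug oxidases, lay between 67.5 and 94.5% in the control library. The 3 measured Cyp2a genes lay between 76.3 and 95.1%, with Cyp2a4, a testosterone hydroxylase, the highest of the family. The 3 measured Cyp2b genes lay between 65.1 and 80.2%. Among them Cyp2b10, induced by phenobarbital through the receptor CAR, stood at 80.2% in control and 81.7% in fasted liver (9 cytosines). Cyp2c29, an arachidonic acid epoxygenase, stood at 73.2% in control and 78.1% in fasted liver (13 cytosines). The 6 measured Cyp2d genes ranged from 50.7 to 83.4%, and the 6 measured Cyp2j genes from 36.4 to 86.7%.

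Single-copy members of family 2 were more varied. Cyp2r1 had the lowest level of the family, 10.4% in control and 7.52% in fasted liver (73 cytosines), since 67 of them lie around its CpG-dense start at 3.56% and 1.48%. Cyp2u1, a fatty acid hydroxylase, stood at 52.0% in control and 49.7% in fasted liver, a mean of contrasting parts. A stretch of 56 cytosines that begins 465 bp inside its higher-coordinate end was at 9.90% and 7.04%, and 38 cytosines in mid-gene were at 86.9% and 84.1%. Cyp2e1 stood at 64.8% in control and 67.1% in fasted liver. It was intermediate, 52.1% in both libraries, over 10 cytosines just inside its higher-coordinate end, and high, 88.5% and 85.6%, over 12 cytosines beyond that end. Cyp2s1, of surface epithelia, stood at 37.0% in control and 38.3% in fasted liver, and its start at 2.47% and 2.65%. Cyp2w1, known from fetal gut and colon tumours, stood at 85.8% in control and 82.8% in fasted liver, and its start was also methylated, 91.6% and 84.5% over 12 cytosines.

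Family 3, the drug oxidases of liver and gut, had 8 measured genes of 9, with a median of 79.96% in control and 76.2% in fasted liver. Cyp3a41b was the highest, 91.7% in control and 91.1% in fasted liver, and Cyp3a13, expressed in gut as well as liver, the lowest, 42.4% in control and 38.4% in fasted liver. In Cyp3a13 the low value came from 6 cytosines inside the gene at 24.8% and 22.2%. Cyp3a11 stood at 72.2% in control and 71.6% in fasted liver over 28 cytosines. All 8 measured genes were lower in the fasted library, with a median difference of -3.84 points, where 50.2% of all genes were lower. This direction was not kept in every alternative: 5 of 9 were lower with a flank of 20 kb, 3 of 5 with at least 10 reads, 7 of 8 with strands merged and 7 of 8 with reads weighted equally. Over the 111 cytosines of the family the mean difference was -3.44 points (counting interval -6.52 to -0.353).

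Family 4, the omega-hydroxylases of fatty acids, had 16 measured genes of 20 and a median of 71.5% in control and 70.3% in fasted liver. The Cyp4a genes, classical targets of the fatty acid receptor PPARA, were sparsely covered. Cyp4a10 had 1 cytosine and was not measured, and Cyp4a14 stood at 82.4% in control and 89.3% in fasted liver over 9 cytosines. All 5 measured Cyp4a genes were higher in the fasted library, as were 8901 of 17862 genes in all. With a flank of 20 kb 6 of 8 were higher, with strands merged 5 of 6 and with no flank 1 of 2. Over the subfamily's 86 cytosines the mean difference was 3.30 points (0.0798 to 6.52, counting error, an interval that nearly reaches 0). At the starts and gene ends of the Cyp4a genes no cytosine met the minimum of 5 reads in both libraries. Cyp4v3 had the lowest level, 18.5% in control and 17.0% in fasted liver, with a start at 0.272% and 0.605% over 50 cytosines, and Cyp4f15 the highest, 91.7% in control and 87.8% in fasted liver (7 cytosines). Cyp4f13, of the cluster that hydroxylates leukotrienes and other fatty acids, was nearly as low, 18.6% in control and 22.8% in fasted liver. Cyp4b1, best known from lung, stood at 89.3% in control and 93.4% in fasted liver.

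Among the enzymes of bile acid synthesis, Cyp7a1, which sets the rate of the classical pathway, stood at 62.1% in control and 70.1% in fasted liver over 26 cytosines. Of these 20 lie in 1 stretch inside the gene, from 6272508 to 6272745 on chromosome 4, at 59.6% and 67.7%, and neither gene end was covered. Cyp7b1, an oxysterol hydroxylase, stood at 54.0% in control and 55.7% in fasted liver, with 22 cytosines 792 bp or more inside its higher-coordinate end at 0.364% and 3.47%. Cyp8b1 stood at 29.1% in control and 27.7% in fasted liver, a low level for a gene with few CGs in its promoter. In Cyp8b1, 14 cytosines around its lower-coordinate end were at 18.2% and 21.9%, and 6 that begin 507 bp after its start were at 21.1% and 21.4%. Another 6, upstream of the gene, were at 38.7% and 23.3%, with 3 higher and 3 lower. Cyp27a1, the mitochondrial sterol hydroxylase, stood at 58.5% in control and 56.1% in fasted liver. Its level was low just after the start, 3.91% and 3.51% over 8 cytosines, and again 8752 bp inside the gene, 18.0% and 15.7% over 4 cytosines. Cyp39a1, another oxysterol hydroxylase, stood at 37.4% in control and 37.3% in fasted liver, with 35 cytosines at its lower-coordinate end, beside the neighbouring gene Slc25a27, at 0% and 0.587%. Cyp51 had the lowest level of all measured P450 genes, 7.47% in control and 4.87% in fasted liver.

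The steroid hormone genes, expressed in adrenal gland and gonads, were mostly methylated in liver. Cyp11b1, which completes corticosterone, was the most methylated P450 gene, 96.8% in control and 93.7% in fasted liver (6 cytosines). Cyp21a1, the steroid hydroxylase beside the complement genes, stood at 92.2% in control and 87.3% in fasted liver, and Cyp19a1, the aromatase, at 83.1% in control and 81.6% in fasted liver (100 cytosines). Cyp11a1, the cholesterol side chain cleavage enzyme, stood at 62.9% in control and 58.9% in fasted liver, but its start at 20.6% and 21.5% over 7 cytosines. Cyp17a1, which is expressed in mouse liver too, stood at 56.2% in control and 54.0% in fasted liver, with intermediate levels of 39.9% and 38.9% over 18 cytosines at its lower-coordinate end.

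Several genes of retinoic acid, vitamin D and sterols held stretches of low level, though not all did: the start of Cyp26c1, a retinoic acid hydroxylase, was at 82.9% and 97.5%. Cyp26b1, which degrades retinoic acid, stood at 14.3% in control and 14.8% in fasted liver over 256 cytosines, and 7 windows of 1000 bp between 84583001 and 84591000 on chromosome 6, all centred at least 3546 bp from an annotated start or gene end, were between 1.30 and 8.22% in the control library. These were 7 of the 11 P450 windows below 20% in both libraries and more than 2000 bp from a start or end, out of 164 such P450 windows (6.71%), against 4.97% over all protein-coding genes. Of the remainder, liver-rich genes held 3, in Cyp27a1, Cyp7b1 and Cyp2c23, and Cyp46a1 held 1. Cyp26a1, the retinoic acid hydroxylase of liver, stood at 20.9% in control and 22.7% in fasted liver, with 96 cytosines at its start at 1.67% and 2.25%. Cyp24a1, which inactivates vitamin D, stood at 24.0% in control and 24.0% in fasted liver. Its higher-coordinate end, close to an annotated start or end of the neighbouring gene Pfdn4, stood at 2.74% and 3.27% over 63 cytosines. Cyp27b1, which activates vitamin D in kidney, stood at 36.0% in control and 36.6% in fasted liver over 210 cytosines, of which 43 inside the gene were at 3.35% and 4.32% and 75 beside the neighbouring gene Marchf9 at 1.39% and 2.52%. Cyp46a1, the cholesterol hydroxylase of neurons, stood at 18.5% in control and 17.0% in fasted liver, and its start at 1.69% and 0.806% over 110 cytosines. Cyp20a1, a P450 of unknown substrate, stood at 25.2% in control and 26.2% in fasted liver, and its start at 0.670% and 0.864%.

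Between the libraries the P450 genes differed little on average. Over all 3422 cytosines the mean was 46.3% in control and 45.8% in fasted liver, a difference of -0.553 points (95% counting interval -1.04 to -0.0680), against 0.14 points over all autosomal cytosines. It was -0.886 points (-1.65 to -0.126) in liver-rich genes and 0.0480 points (-0.552 to 0.648) in the others. The 189 cytosines shared by Cyp26a1 (liver-rich) and Cyp26c1 (other) count in both groups. Among families the mean difference ranged from -3.44 points in family 3 to 3.38 points in family 7. Of the measured genes 50 (58.1%) were lower and 36 higher in the fasted library. Without the 10 cytosines of the Cyp2c23 windows described below, the difference over all P450 cytosines was -0.391 points (counting error 0.485 each way). With at least 20 reads it was -0.186 points (0.539 each way). Both of these intervals include 0. In liver-rich genes with at least 20 cytosines it was -0.671 points (-1.49 to 0.148).

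A difference of at least 5 points in the gene mean was seen at 24 of 86 measured P450 genes (27.9%), where 7.14% of all measured genes had one. In 8 the fasted library was higher (background 3.72%) and in 16 lower (background 3.43%). Much of this count went with sparse coverage, since 18 of the 24 had fewer than 20 cytosines. Of P450 genes with 5 to 19 cytosines 48.6% passed 5 points, and of all genes in that class 36.9%. Among P450 genes with at least 20 cytosines 6 of 49 passed, against 3.46% of all such genes. Of these 2 were higher and 4 lower, where 1.73% of all such genes were past the limit in each direction. Coverage was not matched within this class, which has no upper limit. Its P450 genes held a median of 40 (liver-rich) and 44.5 (other) cytosines, where the median over all protein-coding genes was 84. The counting interval left out 0 at 8 of the 24. There is no test of the conditions behind these counts, since each condition had 1 library.

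The 8 higher genes were Cyp2c65, Cyp2a22, Cyp2c54, Cyp7a1, Cyp4a14, Cyp2c50, Cyp2d34 and Cyp2ab1. Cyp2c65, an epoxygenase of the gut, stood at 68.9% in control and 80.9% in fasted liver over 9 cytosines, 6 of them higher and 1 lower. Cyp7a1 differed by 7.94 points (1.47 to 14.4), with 20 cytosines higher and 5 lower. Cyp2a22 stood at 76.3% in control and 88.2% in fasted liver over 6 cytosines, but with strands merged its difference was -4.84 points. Cyp2c54 stood at 79.97% in control and 88.4% in fasted liver (8 cytosines) and Cyp2c50 at 80.3% in control and 86.3% in fasted liver (7 cytosines), both of the epoxygenase cluster. Cyp2d34 stood at 83.4% in control and 88.9% in fasted liver and Cyp2ab1 at 86.5% in control and 92.0% in fasted liver.

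Among the lower genes, Cyp3a25 of the family 3 cluster had the widest gap, 57.1% in control and 38.6% in fasted liver, over 5 cytosines. It came from 3 neighbouring cytosines at 48.5% and 16.7%, with 35 and 42 reads in all. Cyp2c23 stood at 77.7% in control and 61.9% in fasted liver over 40 cytosines. Cyp4f40 stood at 70.8% in control and 60.0% in fasted liver, with 19 of 29 cytosines lower (-16.2 to -5.27 points, counting error). Cyp2d26 stood at 50.7% in control and 40.7% in fasted liver (16 cytosines), and 6 of these, just inside its start, stood at 32.2% and 16.0%. Among those 6, 3 were lower and 3 higher, split by strand. On the plus strand they stood at 40 to 53.3% in control and 5.56% in fasted liver. On the minus strand they stood at 20% in control and 24.1 to 27.6% in fasted liver. Cyp2d40 stood at 73.9% in control and 63.3% in fasted liver, Cyp2a4 at 95.1% in control and 86.5% in fasted liver and Cyp3a16, expressed mainly in fetal liver, at 89.5% in control and 81.1% in fasted liver, each over 5 or 6 cytosines. Cyp2c69 stood at 91.8% in control and 84.0% in fasted liver and Cyp2j5, an epoxygenase of kidney and liver, at 60.9% in control and 53.1% in fasted liver. The other 7 lay between -6.97 points at Cyp2c70 and -5.32 points at Cyp4f39. With at least 10 reads 12 of the 24 genes still passed in the same direction, 11 fell below 5 cytosines and 1, Cyp2c70, turned to 4.82 points. Under all 7 alternatives with a gene level Cyp7a1 and Cyp4f40 passed 5 points in the same direction, and under the 6 in which they had 5 cytosines Cyp2c23, Cyp2c65 and Cyp2d26 did. The genes nearest to the limit were Cyp2c29 with 4.89 points outside it and Cyp4f39 with -5.32 points inside it.

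**Figure D4:**
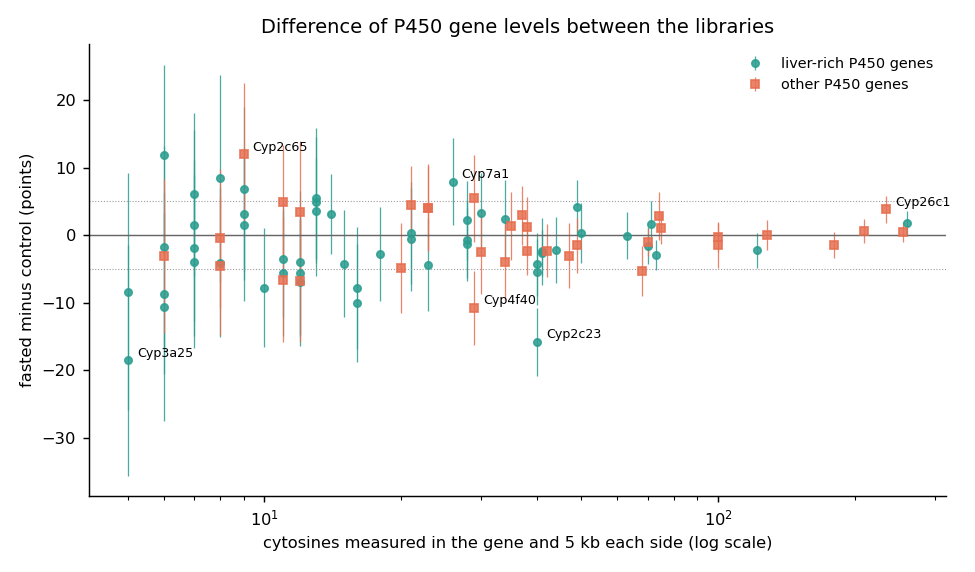
Difference of the gene mean, fasted minus control (percentage points), against the number of cytosines measured per P450 gene (log scale), with 95% counting intervals (circles liver-rich, squares other; dotted lines at 5 points). The scatter narrows with more cytosines, and Cyp2c23 and Cyp4f40 lie lowest among genes with at least 20.

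The widest window difference at a P450 gene was in a block inside Cyp2c23, an arachidonic acid epoxygenase gene on chromosome 19 (44005022 to 44029256). Its 10 cytosines, 7 CpGs between 44027939 and 44028547, averaged 79.96% in control and 24.3% in fasted liver, and 10 of 10 were lower. The cytosine at 44027970 was methylated in 18 of 18 control reads (100%, exact interval from 81.5%) and in 2 of 26 fasted reads (7.69%, up to 25.1%). On the other strand of the same CpG, position 44027971, the counts were 22 of 30 and 12 of 40, or 73.3% and 30%. The difference thus had the same direction on both strands but not the same size. At 44027939 the counts were 9 of 9 and 1 of 13, and at 44028442 they were 8 of 17 and 2 of 19. The 18 and 26 reads at 44027970 stand beside 9 and 13 at 44027939 on the same strand. The same molecules may have been counted in pairs there, and the exact intervals may be too narrow. The block lies 709 to 1317 bp inside the higher-coordinate end of the gene, and whether it is exonic or intronic was not analysed here. The remaining 30 cytosines of Cyp2c23 averaged 77.0% and 74.4%, with 9 higher and 15 lower.

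**Figure D5:**
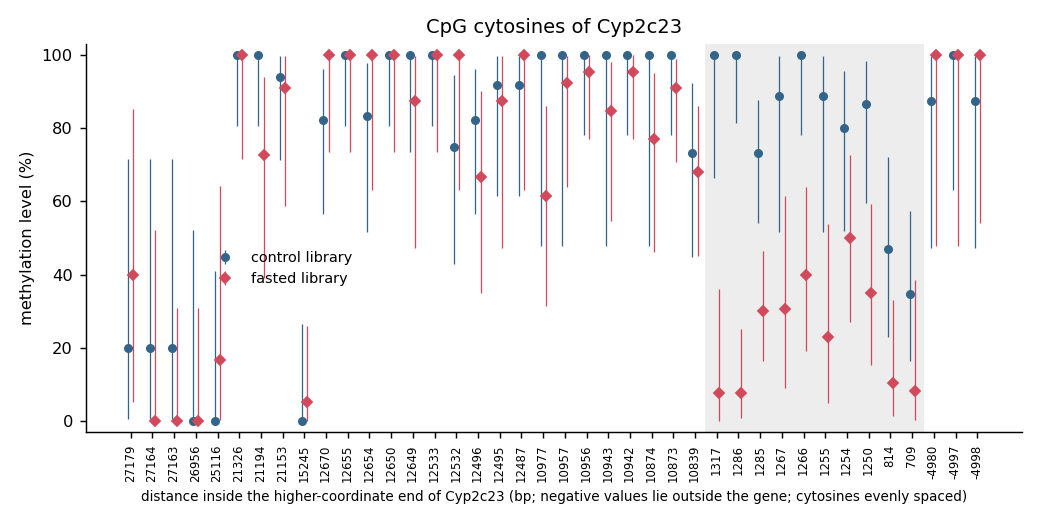
Methylation level (percent) of each measured cytosine of Cyp2c23 in the control (circles) and fasted (diamonds) library with 95% exact intervals, ordered by distance inside the higher-coordinate end. In the shaded block, 10 cytosines in the called windows, every diamond lies below its circle.

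Reads of single cytosines were compared with Fisher's exact test, two-sided, and p-values were adjusted by Benjamini-Hochberg over all autosomal cytosines. By this test 2 of 3422 P450 cytosines were called at 25 points or more (0.0584%), where 0.0548% of all cytosines were called and 0.0246% were called as lower in the fasted library. Both were lower and lay in Cyp2c23, at 44027970 (exact test, adjusted p = 2.74e-06) and 44027939 (adjusted p = 0.0368). They lie on the same strand and may share molecules. With read counts halved 0 P450 cytosines were called, against 0.00308% of all. The share of P450 cytosines called was near the background. At an unadjusted p under 0.05 there were 67 (1.958%, against 1.85% of all). At 82.9% of P450 cytosines the reads sufficed for a full switch from 0 to 100% to be called. The test compares the reads of 2 libraries, not the conditions.

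Of 281 P450 windows of 1000 bp with at least 3 cytosines, 5 (1.78%) were called at 10 points or more by the same test on summed reads, against 1.43% of all windows. With no flank 5 of 200 were called, and with a flank of 20 kb 14 of 509, against the same background. The calls added by the wider flank lie outside the genes and their 5 kb flanks. Of the P450 windows tested 4 (1.42%) were called as lower (background 0.676%) and 1 as higher (background 0.759%). Adjacent windows of Cyp2c23 stood at 92.4% and 23.2% (exact test, adjusted p = 9.20e-17) and at 67.5% and 25.4% (exact test, adjusted p = 0.00165). A window at the 3′ end of Cyp4f40 (chromosome 17, 32676001 to 32677000) fell from 44.5% to 26.9%, with 11 of 12 cytosines lower (exact test, adjusted p = 0.00693). A window inside Cyp2f2, known for bioactivating naphthalene in lung and liver (chromosome 7, 27129001 to 27130000), fell from 60.0% to 42.7%, with 9 of 10 lower (exact test, adjusted p = 0.0277). The gene mean of Cyp2f2 stood at 36.1% in control and 36.4% in fasted liver, but the difference was -12.9 points with at least 10 reads, -16.9 with at least 20 reads and -6.26 with reads weighted equally. A window at the start of Cyp26c1 (chromosome 19, 37685001 to 37686000), rose from 82.9% to 97.5%, with all 9 cytosines higher (exact test, adjusted p = 0.00125). Neighbouring cytosines share molecules, so these p-values are too small. With every read count halved, 1 window of Cyp2c23 remained (exact test, adjusted p = 7.94e-07), and with reads divided by cytosines 0 remained.

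Start windows differed by 10 points or more at 3 of 21 P450 genes, against 2.91% of all starts. These were Cyp26c1 (82.9% and 97.5%, 9 cytosines), Cyp2d26 (32.2% and 16.0%, 6 cytosines, 3 lower and 3 higher) and Cyp2f2 (36.6% and 48.2%, 3 cytosines). All 3 have intermediate or high levels and few cytosines, and a start below 10% could not have fallen by 10 points.

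The partners and regulators of P450 enzymes had lower levels than the P450 genes. Genes of electron transfer and haem turnover had a median level of 20.3% in control and 20.2% in fasted liver over 9 genes, and 0 differed by 5 points, where 7.14% of all measured genes did. Their widest differences were at Hmox1, the haem oxygenase, with 23.1% and 20.2%, and at Por, the P450 oxidoreductase, with 49.9% and 47.6%. The 21 regulators had a median of 22.4% and 22.4%, and 1 differed by 5 points, a count near that background. This was Nr1h4, the bile acid receptor FXR, which stood at 55.0% in control and 44.5% in fasted liver over 53 cytosines, 36 of them lower and 13 higher (counting interval -15.3 to -5.55 points). Next was Nr0b2, a repressor of bile acid synthesis, with 18.9% and 14.5%. Ptgis and Tbxas1, P450 enzymes of prostacyclin and thromboxane whose symbols lie outside the Cyp series, stood at 54.6% and 53.4% and at 35.4% and 33.6%.

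The labelled tissue could be checked only by methylation, since no RNA was measured. Genes of hepatocyte proteins had a median level of 35.9% in control and 37.7% in fasted liver (8 genes). Endothelial genes stood at 78.3% and 79.9% and leukocyte genes at 77.1% and 78.1% (6 genes each). The lists overlapped in the control library, with Cd79a at 9.25% and Kdr at 41.3% but Alb at 63.1% and Ttr at 62.3%. Few starts were measured. In control liver 1 hepatocyte start was at 19.6%, 1 endothelial start at 1.53%, and 2 leukocyte starts had a median of 78.7%. These levels therefore do not settle the tissue. Of the 20 genes 2 differed by 5 points, Apoa2 (56.9% and 49.6%) and Fgb (29.8% and 20.8%), where 7.14% of all measured genes did. Different shares of cell types in the 2 samples cannot be told apart from a change within cells, and their part in the P450 differences was not tested.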

How the data were processed

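Liver DNA of 1 control and 1 fasted library was measured. Per the labels' protocols it was cut with TaqαI and MspI, ligated to methylated adapters, size selected, bisulfite converted, amplified and sequenced. Bismark 0.14.3, bcl2fastq 1.8.4 and the build mm10 are listed in the submitters' processing notes. How duplicates and overlapping mates were treated is not stated there. The deposited files list for each CpG cytosine and strand the methylated and total read counts and the percent methylated as text, and a score of 1000 times the methylated fraction, from which the counts differed by at most 0.5. The read counts were used. The libraries held 49253627 and 51276705 reads over cytosines.

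Gene spans and promoters came from RefSeq tables of GRCm38.p6. Levels are means over cytosines, and intervals (95%) cover counting error. Cytosines and windows were compared by two-sided Fisher's exact tests adjusted over all autosomes and called at an adjusted p under 0.05. The calls were checked on simulated data whose reads were drawn independently at each cytosine. That check therefore does not cover shared molecules or reads counted in pairs. The software was python 3.11.15, numpy 2.4.6 and scipy 1.17.1. Gene means have a size rule only. PCR reads carried no molecular identifiers that the sources name. For the 22 P450 genes with no start listed both gene ends were read instead. Genes were named by a rule: a fixed set of 32 well-known P450s, the 8 largest differences each way, called genes and the extremes of each family. Members and lists were chosen with earlier results of these data known. Low windows, levels away from starts, printed promoters and stretches were chosen after seeing the values. Of the lists, 1 symbol of electron transfer matched no gene and 1 liver-rich symbol no member. Alternatives changed the read and cytosine minimums, flank, strands, weights, size rules and the liver-rich list. Exons and introns were not analysed here.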

Additional observations from a re-analysis of the deposited data

How the results depend on the processing

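No paired analysis was possible because each group had 1 library. Shares in brackets are those of all features called under the same setting. The called P450 cytosines numbered 2 in the main analysis, 1 with at least 10 reads (0.0820%), 0 with at least 20 reads (0.143%), 4 with a flank of 20 kb (0.0548%) and 0 with read counts halved (0.00308%). The called windows numbered 5 in the main analysis, 2 of 66 with at least 20 reads (2.42%), 14 of 509 with a flank of 20 kb (1.43%), 2 at 25 points (0.517%), 1 with read counts halved (0.250%) and 0 with reads divided by cytosines (4.85e-04%). Genes past 5 points numbered 24, 4 of 34 with at least 20 reads (4.85%), 15 of 67 with at least 10 cytosines (5.39%), 6 of 49 with at least 20 (3.46%), and 6 at 10 points (1.64%). With read weights it was 13 higher and 15 lower (14.4%), against 8 and 16. The median level was 22.5% in liver-rich and 16.0% in other P450 genes with at least 20 reads, where 34 P450 genes were measured, and 56.2% in liver-rich genes with at least 20 cytosines. Among the 24 genes past 5 points the sign of the difference turned in 4, at Cyp2c70 with at least 10 reads (4.82 points), at Cyp2a22 with a flank of 20 kb (-0.00842) and with strands merged (-4.84), and with read weights at Cyp2c38 (1.51) and Cyp2j9 (2.18); the cause was not tested. Of the 33 other named genes 22 changed sign in at least 1 alternative, so no direction is read from them. The mean difference over P450 cytosines stayed below 0 in the alternatives run, from -0.800 with no flank to -0.186 points with at least 20 reads. The counting interval included 0 with at least 20 reads and without the Cyp2c23 windows. Leaving out the Cyp2c23 windows was added after seeing the data. Depth limits the cytosine calls, since at the reads available a full switch could be called at 82.9% of P450 cytosines and smaller differences at fewer.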
